A study of Mus musculus with 10 samples.

Results

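The probes described here are the 4087 mouse transcript probes whose names begin with ASMM10SM, chosen by name alone from the 60706 mouse probes that were used on the array, of which they made up 6.73%. Each had 1 spot on the array. The largest series on the same array, ASMM10EP3A with 48057 probes, served for comparison. None of the ASMM10SM probes carried a gene name or accession, and 0 of 4087 matched the RefSeq table used here, so they are named by their identifiers. What the letters of the series name stand for is not given in the sources used here.

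RNA came from testes of male C57BL/6J mice aged 3 months. Their mothers received testosterone at 2.5 mg/kg body weight, or the sesame oil and benzyl benzoate solvent alone, by injection under the skin once a day between days 14 and 19 of pregnancy, counted from mating. There were 5 samples per group, which the labels call biological replicates. Treatment was given to the mothers and not to the sampled males. Which samples share a mother is not given in the sources used here, and littermates in a group would not be independent. Each sample was split by immunoprecipitation, and both fractions were hybridised to 1 array. Cy5 marked the bound RNA (IP) and Cy3 the unbound RNA of the supernatant (Sup) on every array. The dyes were not swapped, so dye and fraction cannot be told apart.

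In RNA immunoprecipitation an antibody pulls down the RNA molecules that carry its target, and the rest stays in the supernatant. A transcript held mainly by the antibody gives a high IP/Sup ratio, and one that mostly escapes it gives a low ratio. The antibody is not named in the labels, so the ratio is given as a ratio of fractions and not as the level of a modification. The adult testis is a tissue in which germ cells at many stages, Sertoli cells and Leydig cells lie together and in which an unusually large part of the genome is transcribed. In such bulk samples fewer cells of a type and less RNA per cell cannot be told apart.

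The 10 arrays lay on 3 slides. Control replicates 1 to 4 shared slide 1. Slide 2 combined control replicate 5 with testosterone replicates 1, 2 and 3. Testosterone replicates 4 and 5 were on slide 3, which belonged to a second scan. No spot was saturated, and the scanner marked 4 to 21 ASMM10SM spots per array as outliers, which were left out. Of the 9 germ cell markers looked for, 2 had a named probe on the array, Spats1 and Hyal3, and each of them passed the background mark in IP and in Sup throughout. Of all mouse probes, 55.7% did so on all 10 arrays, so the detection of 2 germ cell genes says little about the tissue label. The Sertoli, Leydig and other cell markers had 0 named probes, so the label could not be checked on them.

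ASMM10SM probes were dimmer and less often detected than the ASMM10EP3A probes. Detection here means that the scanner marked a spot as well above its background. In Sup, 60.3% ± 1.5 (SD, n = 5) of ASMM10SM probes were detected in control and 56.8% ± 4.15 (SD, n = 5) in testosterone samples. The shares for ASMM10EP3A were 76.3% ± 0.547 and 73.2% ± 2.98 in the same arrays. In IP, 57% ± 2.42 (SD, n = 5) of ASMM10SM probes were detected in control and 50.4% ± 8.05 (SD, n = 5) in testosterone samples, against 75.7% ± 1.41 and 71.5% ± 5.5 for ASMM10EP3A. The 15 negative probes gave 0% to 13.3% in Sup and 6.67% in IP. The lowest IP shares of ASMM10SM probes, 40.9% and 42.5%, were those of the 2 arrays on slide 3. The 8 arrays of the first scan lay between 54% and 61.2%, and their mean was 56.7%. For ASMM10EP3A the IP shares on slide 3 were also the lowest, at 64.3% and 67.1%, against 73.8% to 78.1% on the first scan.

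By array, 1393 ASMM10SM probes (34.1%) passed the background mark in IP and Sup alike on each of the 10 arrays, against 58.1% of ASMM10EP3A probes. A further 1095 (26.8%) were above background in neither channel on any array, against 14.2% of ASMM10EP3A probes. For the IP/Sup ratio, 2064 probes (50.5%) were tested, those that both fractions lifted over background on 5 arrays or more. The corresponding share of ASMM10EP3A was 70.4%. The filter on brightness removed a larger part of the ASMM10SM series, and the ratios below refer to the brighter members only.

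A set of 78 ASMM10SM probes was above background in Sup on all 10 arrays and in IP on none. That was 1.91% of the series, where 0.624% of all mouse probes and 0.549% of ASMM10EP3A probes behaved so. The opposite pattern, IP on all arrays and Sup on none, held for 10 ASMM10SM probes, or 0.245%, against 0.682% of all mouse probes and 0.67% of ASMM10EP3A probes. Because 1 channel gave no measured level, only a bound on the ratio can be given, with the dim channel set to the higher of its own signal and the lowest detected signal on that array. The 78 probes were at least 1.44-fold to at least 29.8-fold higher in Sup, with a median bound of 3.15-fold. The 10 probes were at least 1.59-fold to at least 4.63-fold higher in IP, with a median bound of 2.11-fold. These bounds compare dyes that were not swapped.

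Among the 2064 tested ASMM10SM probes, few lay strongly on the IP side and a tail of bright probes lay far on the Sup side. The ratio is log2 of the IP over the Sup processed signal minus the median of that array, so 0 stands for the typical mouse probe. A probe was called on a side by limma across all 41424 tested probes, with a Benjamini-Hochberg adjusted p under 0.05 and a ratio of 2-fold or more. In all, 169 ASMM10SM probes (8.19%) were called toward IP, where 19.5% of all tested probes and 20.1% of ASMM10EP3A probes were. On the Sup side 522 (25.3%) were called, where 21.2% of all tested probes were. Some spike-in probes, described below, also lay past 2-fold on either side. At 16-fold or more on the Sup side there were 70 ASMM10SM probes (3.39%), where 0.577% of all tested probes and 0.446% of ASMM10EP3A probes were called. The call depends on a set threshold: the probes just past and just short of 2-fold on the Sup side had log2 ratios of -1.003 and -0.990. The number on the IP side was 45 with normexp background correction and 285 with centring on spike-in probes, and the number on the Sup side was 290 with normexp. The shares of all tested probes under these settings are not given here, so these counts do not compare the series with the array.

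The shape of the distribution differed from that of ASMM10EP3A probes weighted to the same brightness, given here as a description with no test. Brightness is the mean log2 signal over both channels. The median ASMM10SM log2 ratio was -0.11 and that of matched ASMM10EP3A probes -0.04. The interquartile range was 1.40 on the log2 scale in both. The tails did not match: the lowest 5% of ASMM10SM probes lay below -3.59 and the lowest 1% below -5.05, against -2.02 and -3.13 for matched ASMM10EP3A. At the other end the highest 5% lay above 1.19, against 2.26, and the highest 1% above 2.01, against 3.75.

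Counted by fold, 277 ASMM10SM probes (13.4%) were at least 4-fold on the Sup side, against 5.14% of matched ASMM10EP3A. At least 8-fold were 167 (8.09% against 1.22%), and at least 32-fold were 23 (1.11% against 0.0538%). On the IP side at least 4-fold were 21 (1.02% against 6.52%) and at least 8-fold 6 (0.291% against 2.26%). Of the 100 lowest ratios on the whole array 43 were ASMM10SM probes, and of the 500 lowest 123 (24.6%) were, although the series made up 4.98% of the tested probes. Of the 100 highest ratios 0 were ASMM10SM probes, and of the 500 highest 2 (0.4%) were.

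The tail was then read at matched brightness. Tested probes had to pass the background mark in IP as well, which limits how far on the Sup side a dim probe can lie. How much of the low shares in the dim bins comes from that requirement was not tested. In the dimmest of 10 brightness bins of tested ASMM10SM probes the median ratio was 0.26, against -0.01 for ASMM10EP3A probes of the same brightness, and 0% were at least 4-fold on the Sup side, against 0.0501%. In the brightest bin the median was -0.79, with quartiles of -3.36 and 0.14, and 39.1% were at least 4-fold on the Sup side. The ASMM10EP3A probes of that brightness had a median of -0.10, with quartiles of -1.12 and 1.04, and 11% were at least 4-fold on the Sup side. In the same bin 7.25% of ASMM10SM probes and 25.7% of ASMM10EP3A probes were at least 2-fold on the IP side. The 70 probes at least 16-fold on the Sup side had a median signal of 14052 in Sup and 418 in IP. The 1373 probes within 2-fold had 392 and 393. The 169 probes on the IP side had 213 in Sup and 589 in IP.

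The tail was spread over the array. With the rows cut into 4 equal blocks, the 277 probes at least 4-fold on the Sup side numbered 72, 69, 64 and 72 from the first block to the last, and with the columns cut likewise 70, 76, 69 and 62. The tail was also present in the 1392 probes detected in IP and in Sup on each of the 10 arrays and holding an unflagged value in each group, of which 164 (11.8%) were at least 4-fold on the Sup side, against 6.69% of ASMM10EP3A probes passing the same requirement. At 16-fold the shares were 3.02% and 0.466%. Spike-in RNA, added in equal amount to both fractions, gives a scale for the ratio: its 22 detected probes ranged from -3.52 to 1.40 with a median of -0.31. The next lowest spike-in probe lay at -1.56. Of the 22, 6 were at least 2-fold on the Sup side, 1 of them at least 4-fold, and 4 were at least 2-fold on the IP side. A 2-fold ratio therefore also occurred in RNA added in equal amount. Below the lowest spike-in lay 111 ASMM10SM probes (5.38%), against 0.898% of ASMM10EP3A probes. Above the highest lay 72 ASMM10SM probes, and the ASMM10EP3A share there is not given here. The highest 5% of tested probes began at 1.19 for ASMM10SM, below that spike-in, and at 2.56 for ASMM10EP3A, above it.

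The tail was seen in every array. The share of ASMM10SM probes at least 4-fold on the Sup side was 13%, 11.5%, 12.3%, 13.9% and 12.7% in control replicates 1 to 5 and 13%, 13.4%, 13.2%, 16.7% and 17.5% in testosterone replicates 1 to 5. The matched ASMM10EP3A shares ran from 4.17% to 7.83%, lower than the ASMM10SM share on each array. The 2 highest shares were those of the second scan. The group means were 12.7% ± 0.897 and 14.8% ± 2.17 (SD, n = 5 each), and the 8 arrays of the first scan gave 12.9% ± 0.735. On the IP side the ASMM10SM share was 0.779% to 1.31% on 9 arrays and 3.41% on control replicate 2, against 5.4% to 9.03% for matched ASMM10EP3A. The matched share was also highest on control replicate 2.

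The median ratio of ASMM10SM probes minus that of matched ASMM10EP3A probes was -0.14, 0.05, -0.09, -0.08 and -0.09 in control replicates 1 to 5 and -0.10, -0.10, -0.13, -0.18 and -0.25 in testosterone replicates 1 to 5. Control replicate 2 was the 1 array above 0, and the groups overlapped. The mean was -0.07 ± 0.0714 (SD, n = 5) in control and -0.15 ± 0.0657 (SD, n = 5) in testosterone samples, -0.09 over the first scan and -0.22 over the second. This small difference of medians depends on how brightness is measured: its mean over all arrays was -0.11, was -0.23 when matched on the Sup signal alone, and turned to 0.04 when matched on the IP signal alone. The tail did not turn under these choices, as the excess of ASMM10SM over matched ASMM10EP3A probes at least 4-fold on the Sup side was 8.04 percentage points and 5.29 at the lowest under any alternative.

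The ratios repeated well between arrays. The median correlation between pairs of arrays was 0.932 over ASMM10SM probes, from 0.871 to 0.971, against 0.919 for matched ASMM10EP3A. These are correlations across probes, which are not independent replicates. The median SD within a group was 0.332 log2 units, against 0.308. The 4-fold Sup side was also largely shared by the groups: 260 probes reached it in the control mean, 296 in the testosterone mean and 258 in both, which is 99.2% of the first list and 87.2% of the second. On every array with an unflagged spot, 191 probes reached it. The same overlaps for ASMM10EP3A or for all tested probes are not given here. These counts therefore describe repeatability and do not set the series apart.

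The lowest ratio of a called ASMM10SM probe was that of ASMM10SM1100047323. Its log2 ratio was -5.49, -6.31, -5.46, -5.90 and -6.14 in control replicates 1 to 5 and -5.93, -5.61, -5.64, -5.27 and -5.03 in testosterone replicates 1 to 5. Every array lay far on the Sup side and the groups overlapped. The mean was -5.68 ± 0.106 (SE, n = 10), or 51.2-fold toward Sup relative to the typical mouse probe, with an adjusted p of 2.88e-14 in limma. Its Sup signal ran from 11975 to 20914 and its IP signal from 199 to 616, and each spot passed the background mark in either channel.

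Next came ASMM10SM1100066852, with log2 ratios of -5.58, -5.55, -4.85, -5.38 and -5.27 in control replicates 1 to 5 and -5.10, -5.34, -5.53, -5.48 and -6.20 in testosterone replicates 1 to 5. Its mean was -5.43 ± 0.104 (SE, n = 10). Its IP signal was well above background on 5 of the 10 arrays and has only an upper bound on control replicates 1 and 2 and testosterone replicates 1, 4 and 5, so the mean is not a measured fold. With normexp background correction it was -2.9, and that of ASMM10SM1100047323 was -4.23.

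On the IP side ASMM10SM1100086245 had log2 ratios of 4.72, 4.88, 4.59, 4.38 and 5.27 in control replicates 1 to 5 and 5.15, 4.72, 4.96, 6.20 and 6.32 in testosterone replicates 1 to 5. Its Sup signal was well above background on 7 arrays. On the other 3, testosterone replicates 1, 4 and 5, it was 59.9, 22.6 and 15.5, and the Sup level has only an upper bound there, so the ratio on these arrays is not a measured size. On slide 3 the median Sup signal of the negative probes was 17.8 and 16.9. With those arrays at their deposited signals the mean was 5.12 ± 0.152 (SE, n = 10), with an adjusted p of 1.14e-12 in limma.

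The other probe far on the IP side was ASMM10SM1100004382, with 4.63, 5.96, 4.92, 4.74 and 4.92 in control and 5.90, 4.83, 5.25, 4.34 and 4.47 in testosterone replicates 1 to 5. Its Sup signal was below the background mark on control replicate 2 and testosterone replicate 1, the arrays with its 2 highest ratios. Its mean was 5.00 ± 0.155 (SE, n = 10), with an adjusted p of 1.71e-12 in limma. The order of the probes is not settled, since ASMM10SM1100004382 was the higher without the second scan (5.18 against 4.86) and with normexp (2.87 against 2.57). With the processed signals, these were the only 2 tested ASMM10SM probes that reached 16-fold on the IP side.

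Testosterone exposure before birth was compared with solvent for the ratio first. By limma with Benjamini-Hochberg adjustment over all 41424 tested probes, 0 ASMM10SM probes differed between the groups, as did 0% of all tested probes, and the smallest adjusted p among ASMM10SM probes was 0.794. At an unadjusted p under 0.05 there were 183 probes, 36 of them higher in testosterone samples (1.74%, against 2.62% of all tested probes) and 147 lower (7.12%, against 3.43%). The median difference, testosterone minus control, was -0.112 on the log2 scale over ASMM10SM probes and -0.018 over all tested probes, with 694 ASMM10SM probes above 0 and 1370 below. Single differences ran from -1.11 to 1.11, with a median standard error of 0.198.

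The values with slide and scan taken into account stand beside this lean. With the second scan's 2 arrays left out, the median difference was -0.021 over ASMM10SM probes and 0.039 over all tested probes, so the whole array moved up together with the series and the series stayed below it. At an unadjusted p under 0.05, 30 ASMM10SM probes were then higher (1.45%, against 2.16% of all tested probes) and 47 lower (2.28%, against 0.983%). With scan as a block the medians were the same by design. The second scan holds testosterone arrays only, so the block takes its difference from the first scan alone. Slide 2 is the 1 slide with both groups, but it holds 1 control array against 3 testosterone arrays, so the comparison within it, and the slide block that rests on it, assume that the lone control varies like the other arrays. There the median was 0.052 over ASMM10SM probes and 0.058 over all tested probes, with 64 higher (3.11%, against 3.13%) and 36 lower (1.75%, against 1.7%). IP detection of ASMM10SM probes, like that of ASMM10EP3A probes, was lowest on the 2 arrays of the second scan, and its part in the lean was not tested.

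Leaving out single arrays also moved these counts. Without control replicate 2 there were 58 higher (2.81%, against 3.06% of all tested probes) and 97 lower (4.7%, against 3.21%). Without testosterone replicate 5 there were 30 higher (1.45%, against 2.11%) and 82 lower (3.97%, against 1.66%). The lower count also fell without control replicate 3 or testosterone replicate 4. It rose from 147 when any other array was left out. It was highest without testosterone replicate 1, with 33 higher and 212 lower, where the share of all tested probes is not given here.

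Probes are named here if detected in IP and Sup on each array, with all 5 testosterone values on the same side of the control mean. That rule favours groups that do not overlap. Among such probes, these had the smallest unadjusted p in each direction. For ASMM10SM1100029420 the log2 ratio was 0.32, 0.46, 0.26, 0.77 and 0.48 in control replicates 1 to 5 and -0.18, -0.15, 0.18, -0.40 and -0.47 in testosterone replicates 1 to 5. The groups did not overlap, and the difference was -0.66 ± 0.158 (SE), with an adjusted p of 0.794 in limma. ASMM10SM1100030946 was 0.25, 0.42, 0.32, 0.12 and 0.09 in control and -0.15, -0.18, -0.36, -0.52 and -1.02 in testosterone replicates 1 to 5, a difference of -0.68 ± 0.173 (SE) with the same adjusted p. Neither passed the test.

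In the other direction ASMM10SM1100158461 was -1.15, -1.27, -0.94, -1.17 and -1.43 in control and -0.66, -1.02, -0.57, -0.58 and -0.68 in testosterone replicates 1 to 5. The difference was 0.49 ± 0.142 (SE), with an adjusted p of 0.794 in limma, and the values overlapped at testosterone replicate 2. ASMM10SM1100065678 was 0.31, 0.11, 0.31, 0.34 and 0.57 in control and 0.62, 0.68, 0.51, 1.03 and 0.66 in testosterone replicates 1 to 5, a difference of 0.37 ± 0.142 (SE) with the same adjusted p. Control replicate 5 lay above testosterone replicate 3, so these groups overlapped too.

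RNA abundance, the sum of both channels scaled to each array, was tested for 2656 ASMM10SM probes. By limma with Benjamini-Hochberg adjustment over 47646 probes, 0 of them differed, against 0.0063% of all tested probes (3 in all), and the smallest adjusted p was 0.079. At an unadjusted p under 0.05 there were 423, of which 114 were higher in testosterone samples (4.29%, against 4.44% of all tested probes) and 309 lower (11.6%, against 11.3%). These shares were close to the background of the whole array. The median difference was -0.088 over ASMM10SM probes and -0.049 over all tested probes.

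The size of this lean depended on the processing, and its direction turned with normexp background correction. Of the 423 probes with an unadjusted p under 0.05, 27% were higher. With normexp 87 were higher (3.28%, against 4.43% of all tested probes) and 62 lower (2.33%, against 4.51%), so that 58.4% were higher. With quantile normalization 177 were higher (6.66%, against 5.16%) and 182 lower (6.85%, against 8.98%), so that 49.3% were higher. Scaling to the spike-in probes moved the median of all tested probes to -0.148 and that of ASMM10SM probes to -0.179.

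Without the second scan 51 were higher (1.92%, against 1.94% of all tested probes) and 133 lower (5.01%, against 6.1%). Within slide 2, again with 1 control array, 80 were higher (3.02%, against 2.89%) and 189 lower (7.13%, against 5.81%). Single arrays moved the counts as well. Without testosterone replicate 3 there were 131 higher (4.93%, against 5.94%) and 514 lower (19.4%, against 13.8%). Without testosterone replicate 4 there were 72 higher (2.71%, against 2.92%) and 189 lower (7.12%, against 7.73%), and without testosterone replicate 5 there were 70 higher (2.64%, against 2.06%) and 178 lower (6.7%, against 7.1%).

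In the authors' value table, which holds IP alone, limma called 88 of 2271 ASMM10SM probes at the adjusted threshold, 1 higher and 87 lower. That was 3.87%, where 1.06% of all 44264 probes of the table and 0.919% of its ASMM10EP3A probes were called. The median difference in the table was -0.395 over ASMM10SM probes and -0.298 over all its probes, so the whole table leaned lower. In the IP channel of the scanner files, scaled to its 75th percentile, limma called 0 ASMM10SM probes and 0.0042% of all tested probes. There 453 ASMM10SM probes had an unadjusted p under 0.05, which was 17.1%, against 13.1% of all tested probes.

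For abundance, named probes were detected in at least 1 channel on all arrays. All 5 of their testosterone values lay on the same side of the control mean, which favours groups that do not overlap. Among such probes, the smallest unadjusted p for a lower abundance was that of ASMM10SM1100086245, a probe described above for its IP side ratio. Its scaled log2 signal was 0.97, 1.37, 1.36, 1.31 and 1.26 in control and 0.56, 0.47, 0.79, 0.66 and 0.29 in testosterone replicates 1 to 5. The groups did not overlap, and the difference was -0.70 ± 0.114 (SE), with an unadjusted p of 5.48e-05 and an adjusted p of 0.158 in limma. ASMM10SM1100039912 followed at 0.04, 0.33, 0.23, 0.38 and 0.11 in control and -0.24, -0.29, -0.19, -0.24 and -0.34 in testosterone replicates, a difference of -0.48 ± 0.088 (SE) and an adjusted p of 0.172. Neither passed the test.

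For a higher abundance in testosterone samples, the same rule gave ASMM10SM1100034697 and ASMM10SM1100120040. The first was -0.86, -0.88, -0.65, -0.64 and -0.87 in control and -0.26, -0.33, -0.24, 0.34 and 0.03 in testosterone replicates, with a difference of 0.69 ± 0.130 (SE) and an adjusted p of 0.178 in limma. The second was -1.71, -1.99, -1.67, -1.60 and -1.73 in control and -1.43, -1.15, -1.11, -1.05 and -1.27 in testosterone replicates, with a difference of 0.54 ± 0.103 (SE) and an adjusted p of 0.185 in limma. In both, no testosterone sample overlapped the controls, and neither difference passed the adjusted test.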

How the data were processed

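The submitters' processing notes name Agilent Feature Extraction 11.0.1.1 for reading the spots. The deposited processed signal is, per the file headers, a linear intensity with background subtracted and dyes normalized, which sets the typical IP/Sup ratio of an array near 1. The authors' value table holds log2 values and served as an alternative for abundance. Against the scanner files it equals the IP channel's log2 processed signal less a constant for each array, over probes with IP well above background on at least 5 arrays. The array design names the genome build mm9, and no coordinates are given.

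Control spots and outlier-marked spots were left out. For the ratio, the IP signal was divided by the Sup signal, and the array's median was taken off on the log2 scale. Abundance was log2 of both channels summed, each over its 75th percentile. Tested probes were well above background on at least 5 of 10 arrays, in both channels for the ratio and in at least 1 for abundance. limma 3.58.1 in R 4.3.3 was fitted on all mouse probes, with p-values adjusted by Benjamini-Hochberg over all tested probes and called under 0.05, and the rest was computed in Python 3.11.15 with numpy 2.4.6 and pandas 2.3.3. Brightness matching weighted ASMM10EP3A probes over 10 brightness bins of the ASMM10SM probes. Tested on simulated data, the ratio fit found 36 of 100 probes with a 2-fold change and 3 of 100 with a 1.5-fold change among 39337, and the abundance fit 82 and 38 of 100 among 45555.

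Probes with no gene name were named by a rule, at most 2 per direction and comparison: the lowest and highest mean ratios, and, for the groups, the smallest unadjusted p among probes above background on all arrays whose 5 testosterone values all lay above, or all below, the control mean. The 14 genes of the m6A pathway list and the Sertoli, Leydig and other cell markers had 0 named probes. The members, the rule and the lists were chosen with earlier results of these data known. The replicate numbers were checked for pairing: correlations of same-numbered samples' deviations were -0.0297 to 0.0408 for the ratio and -0.0508 to 0.212 for abundance, so they were not taken as pairs. 0 columns of per-sample values were left out. The number of arrays limits the precision.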

Additional observations from a re-analysis of the deposited data

Results flagged for a closer look

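The share of ASMM10SM probes at least 4-fold on the IP side was 3.41% on control replicate 2, while the other 4 control arrays lay between 0.779% and 1.17%. The matched ASMM10EP3A share was also highest there, at 9.03%, against 5.4% to 7.01% on the other control arrays. The log2 ratio of ASMM10SM1100004382 was 5.96 on the same array, against 4.63 to 4.92 on the other control arrays, and its Sup signal there was 75.6, the lowest of the 5 controls and not well above background. Control replicate 2 also had the lowest median correlation with the other arrays over ASMM10SM probes, 0.914. It was lowest over all tested ASMM10EP3A probes too, at 0.928, while over matched ASMM10EP3A probes testosterone replicate 4 was lowest, at 0.902. The log2 ratio of ASMM10SM1100158461 was -1.02 on testosterone replicate 2, against -0.68 to -0.57 on the other testosterone arrays. The ASMM10SM share and the log2 ratios stood out because the gap to the nearest array of the group took up most of the group's range. Among 40 groups of arrays examined 3 stood out, and chance alone does so in about 1 in 20 groups.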

How the results depend on the processing

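The number of ASMM10SM probes on the IP side, 169, was 45 with normexp, 285 with spike-in centring, 359 with no filter and 156 to 190 with 1 array left out. The number on the Sup side, 522, was 290 with normexp, 880 with no filter, 314 with the filter on all 10 arrays, and 512 to 529 with 1 array left out. For neither side are the shares of all tested probes under these settings given here. The median ratio difference from matched ASMM10EP3A, -0.11, was -0.23 with brightness by Sup alone, 0.04 by IP alone, and -0.13 to -0.1 with 1 array left out. The excess of the 4-fold Sup tail, 8.04 points, was 5.29 with normexp, 6.02 with uncorrected signals and 6.12 with brightness by IP alone, and 7.86 to 8.43 with 1 array left out; its alternatives were chosen after seeing the data. Detection was 79.3% in Sup and 76.1% in IP with the scanner's positive-and-significant flag, against 58.5% and 53.7%, and 58.1% to 59.1% and 52.9% to 55.1% with 1 array left out.

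Calls for the ratio between groups were 0 in all 10 alternatives and left-out fits. Calls for abundance were 0 except in the authors' value table, with 88. With the replicate number as a block, 0 ratio and 0 abundance calls passed, and 239 and 549 had an unadjusted p under 0.05, against 183 and 423. The shares of all tested probes with this block are not given here, so the rise cannot be set against the whole array. The cause of these dependencies was not tested. The listed probes kept their direction and side of the threshold under every alternative in which they were measured. No listed group difference passed it in the main fit. Their sizes moved with normexp and with other settings. Within the slide with both groups, which has a lone control, the ratio difference of ASMM10SM1100065678 was 0.03, against 0.37. ASMM10SM1100030946 had -0.32 against -0.68, ASMM10SM1100029420 -0.53 against -0.66, and ASMM10SM1100158461 0.68 against 0.49. The authors' value table holds IP alone, and its median difference over all its probes was -0.298. There ASMM10SM1100034697, ASMM10SM1100120040, ASMM10SM1100086245 and ASMM10SM1100039912 differed by 0.18, 0.27, -0.95 and -0.69. In the scaled IP channel of the scanner files they differed by 0.45, 0.54, -0.68 and -0.42. The median over all tested probes there was -0.035. Each probe's difference was lower in the table than in that channel, as was the median. With both channels summed the differences were 0.69, 0.54, -0.70 and -0.48. For the 1095 probes detected in neither channel on any array, no ratio could be given.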
